A study of Mus musculus with 30 samples.

Results

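The regions described here carried acetylation of lysine 27 of histone H3 (H3K27ac) in wild-type lymphoid progenitors and not in wild-type splenic B cells. The 6 deposited H3K27ac peak lists were merged into 41843 regions, and a list was counted as having a region when a peak of it overlapped the region by at least 1 bp. Of the 13438 regions with a wild-type progenitor peak, 1685 (12.5%) had no peak in either B cell list, and these are called the members. The members were thus selected on the wild-type progenitor and B cell H3K27ac values, so those values are given as a description and were not tested. The null progenitor list, the LPD lists, the other histone marks and CBP were not used in the choice. Yet the other B cell lists came from the cell type the rule used, so they are not independent of the choice. Every member also had to have a wild-type progenitor peak. Wild-type lengths above null lengths at members and their genes are therefore partly set by the choice.

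The mice were C57BL/6. Wild-type animals carried floxed CBP alleles without the Cre transgene (CBPfl/fl:Mx-Cre-), and the Crebbp-/- animals carried the same alleles with it (CBPfl/fl:Mx-Cre+), so the controls shared the floxed alleles. Mx-Cre is driven by an interferon-inducible promoter that is active in many cell types and not only in lymphoid cells. Progenitors were lineage-negative, IL7ra-positive cells sorted from bone marrow, with 1 H3K27ac list for each genotype. Wild-type B cells were splenocytes sorted for B220, with 2 lists each for H3K27ac, H3K18ac and H3K56ac and 1 list for CBP. Crebbp-/- lymphoproliferative disease (LPD) was profiled as unsorted splenocytes, with 2 lists for each of the 3 marks. Genotype, disease and sorting all separated the LPD material from the B cells, and their effects cannot be told apart. The labels do not say whether the 2 lists of a group came from separate animals, so the spread between them may be technical. In bulk material, fewer cells of a type and less acetylation per cell cannot be told apart either. The B cell lists covered 27.1 and 26.4 Mb with H3K27ac peaks and the LPD lists 26.2 and 18.2 Mb. The progenitor lists were shorter, at 9.43 Mb in wild type and 6.32 Mb in the null. Read depth is unknown, because the files give positions only.

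H3K27ac marks active promoters and enhancers, and is laid down by the related acetyltransferases CBP, the product of Crebbp, and p300. Lineage-negative cells with the interleukin-7 receptor can give rise to B cells, T cells and innate lymphoid cells. On the way to a mature B cell they close the regulatory regions of stem cell, recombination and other-lineage genes, and resting splenic B cells divide little. Which of these regions still carry the mark in Crebbp-null progenitors, and which carry it again in Crebbp-null disease, is the question these lists can address.

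The genes at which the members lay fall into groups that differed in LPD, and the promoters of several are shown first because the later values refer to them. The windows run from 250 bases before to 50 bases after a RefSeq start on GRCm38.p6 (mm10), 5′ to 3′ on the strand of the gene, and each overlaps a member. Capitals mark matches, on either strand, to any of 12 motifs: the GATA factor motif (AGATAA), ETS (AGGAAGT), RUNX (TGTGGT), an E-box spelled CAGCTG, another E-box spelled CACCTG, EBF (CCCNNGGG), the cAMP element (TGACGTCA), AP-1 (TGANTCA), STAT (TTCNNNGAA), the TATA box (TATAAA), the CCAAT box (CCAAT) and the cell cycle homology element (TTTGAA). Matches to different motifs may share bases. The CCAAT box and the cell cycle homology element were added after the genes of the members were known. The first 3 windows belong to genes whose members were absent from both LPD lists, and the last 4 to cell division genes whose members were present in both. The windows are Adgrg1 at chr8:94976859-94977158 (plus strand), Il7r at chr15:9529827-9530126, Igll1 at chr16:16863936-16864235, Mki67 at chr7:135716330-135716629, Ccnb2 at chr9:70421505-70421804, Cdk1 at chr10:69352863-69353162 (all minus strand) and Plk1 at chr7:122159185-122159484 (plus strand).
Adgrg1: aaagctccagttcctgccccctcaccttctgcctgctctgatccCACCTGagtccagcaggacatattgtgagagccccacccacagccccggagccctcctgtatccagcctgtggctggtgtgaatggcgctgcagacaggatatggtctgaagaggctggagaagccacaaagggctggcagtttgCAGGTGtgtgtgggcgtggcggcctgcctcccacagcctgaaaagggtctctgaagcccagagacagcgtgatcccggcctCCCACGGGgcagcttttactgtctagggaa
Il7r: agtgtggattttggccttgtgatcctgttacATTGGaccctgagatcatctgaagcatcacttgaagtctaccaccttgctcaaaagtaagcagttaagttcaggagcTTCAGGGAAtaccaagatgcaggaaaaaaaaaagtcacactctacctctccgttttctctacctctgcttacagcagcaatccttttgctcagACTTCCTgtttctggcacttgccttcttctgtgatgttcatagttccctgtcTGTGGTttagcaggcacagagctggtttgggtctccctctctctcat
Igll1: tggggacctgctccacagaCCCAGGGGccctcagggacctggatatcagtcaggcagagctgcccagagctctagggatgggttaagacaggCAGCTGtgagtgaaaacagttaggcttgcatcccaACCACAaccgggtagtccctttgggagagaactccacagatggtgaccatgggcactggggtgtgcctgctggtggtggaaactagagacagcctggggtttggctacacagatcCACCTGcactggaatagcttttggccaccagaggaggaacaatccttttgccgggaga
Mki67: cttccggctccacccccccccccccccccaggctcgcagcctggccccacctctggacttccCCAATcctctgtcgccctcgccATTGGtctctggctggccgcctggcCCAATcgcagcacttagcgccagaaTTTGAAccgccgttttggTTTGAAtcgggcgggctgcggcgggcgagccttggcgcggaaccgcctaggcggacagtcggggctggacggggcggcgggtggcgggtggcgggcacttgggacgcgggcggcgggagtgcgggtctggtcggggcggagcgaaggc
Ccnb2: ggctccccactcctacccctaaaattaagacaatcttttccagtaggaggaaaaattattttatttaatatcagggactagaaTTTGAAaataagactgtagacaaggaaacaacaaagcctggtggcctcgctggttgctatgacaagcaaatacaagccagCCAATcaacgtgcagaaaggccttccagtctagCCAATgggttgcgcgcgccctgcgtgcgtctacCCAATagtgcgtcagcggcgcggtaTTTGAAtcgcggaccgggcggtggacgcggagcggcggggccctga
Cdk1: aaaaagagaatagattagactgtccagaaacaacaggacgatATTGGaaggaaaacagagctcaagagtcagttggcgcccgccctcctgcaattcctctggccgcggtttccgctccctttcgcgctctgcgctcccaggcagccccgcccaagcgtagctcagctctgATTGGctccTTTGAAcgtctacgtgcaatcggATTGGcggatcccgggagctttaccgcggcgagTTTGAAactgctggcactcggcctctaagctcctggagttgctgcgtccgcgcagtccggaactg
Plk1: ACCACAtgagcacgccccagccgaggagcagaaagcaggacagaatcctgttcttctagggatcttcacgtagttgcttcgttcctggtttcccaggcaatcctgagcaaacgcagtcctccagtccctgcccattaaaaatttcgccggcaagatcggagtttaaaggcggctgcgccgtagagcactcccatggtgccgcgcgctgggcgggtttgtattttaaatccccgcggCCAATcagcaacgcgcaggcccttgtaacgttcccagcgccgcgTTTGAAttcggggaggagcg

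The Mki67, Ccnb2 and Cdk1 windows each held 3 CCAAT boxes and 2 cell cycle homology elements. The Plk1 window held 1 of each and a RUNX match. The Il7r window, which had 1 CpG dinucleotide, held 1 ETS, 1 RUNX, 1 STAT and 1 CCAAT match. The Igll1 window held an EBF match, both E-boxes and a RUNX match, and the Adgrg1 window 2 CACCTG E-boxes and an EBF match. A match describes the letters only and does not show that a factor binds there.

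Most members were not found in LPD. Of the 1685, 210 (12.5%, 95% Wilson interval 11.0 to 14.1%) had a peak in both LPD lists, 137 (8.13%) in 1 of them and 1338 (79.4%, 77.4 to 81.3%) in neither. Over all wild-type progenitor regions 78.3% were in both LPD lists and 17% in neither. Of the 11374 progenitor regions that both B cell lists also had, 89.5% were in both LPD lists and 6.61% in neither. The 379 regions in a single B cell list lay between, with 33.8% in both LPD lists. Intervals of this kind cover counting error over regions, which are not replicates. LPD list 1 had 339 members (20.1%) and LPD list 2 had 218 (12.9%), in the order of their covered lengths. Of the 137 members in a single LPD list, 129 were in list 1. Regions with a null progenitor peak and no wild-type peak of either kind were in both LPD lists in 18 of 203 cases (8.87%). With H3K27ac lists of equal length, 6.21% of members were in both LPD lists, against 14.03% of all wild-type progenitor regions.

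In the Crebbp-null progenitors 725 members (43.0%, 40.7 to 45.4%) had a peak. Over all wild-type progenitor regions the share was 73.3%, and over regions shared with both B cell lists it was 78.7% (77.9 to 79.4%). Members were narrower than shared regions, with a median of 329 bp of wild-type progenitor peak (quartiles 250 and 467 bp) against 589 bp. Narrow regions of every class were more often missing from the null list. Within the quartiles of peak length over all progenitor regions (200 to 333, 334 to 537, 538 to 881 and 882 to 9925 bp), 23.4, 52.5, 78.6 and 95.8% of members had a null peak. The same shares were 36.9, 78.2, 90.8 and 97.5% for regions shared with both B cell lists. The difference between members and shared regions was therefore largest in the quartile of 334 to 537 bp, and the intervals overlapped in the widest quartile (88.5 to 98.6% and 96.9 to 98.0%). Where both progenitor lists had a peak, the null peak was shorter in 540 of 725 members (74.5%), with a median log2 ratio of null to wild-type length of -0.25. In regions shared with B cells it was shorter in 86.4%, with a median of -0.30. When only the widest peaks of each H3K27ac list were kept, up to the total length of the null progenitor list, 5796 of 6852 wild-type progenitor regions became members, and 93.5% of them had a null peak, against 93.7% of all 6852. With 1 list per genotype there was no replicate and no test.

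**Figure D1:**
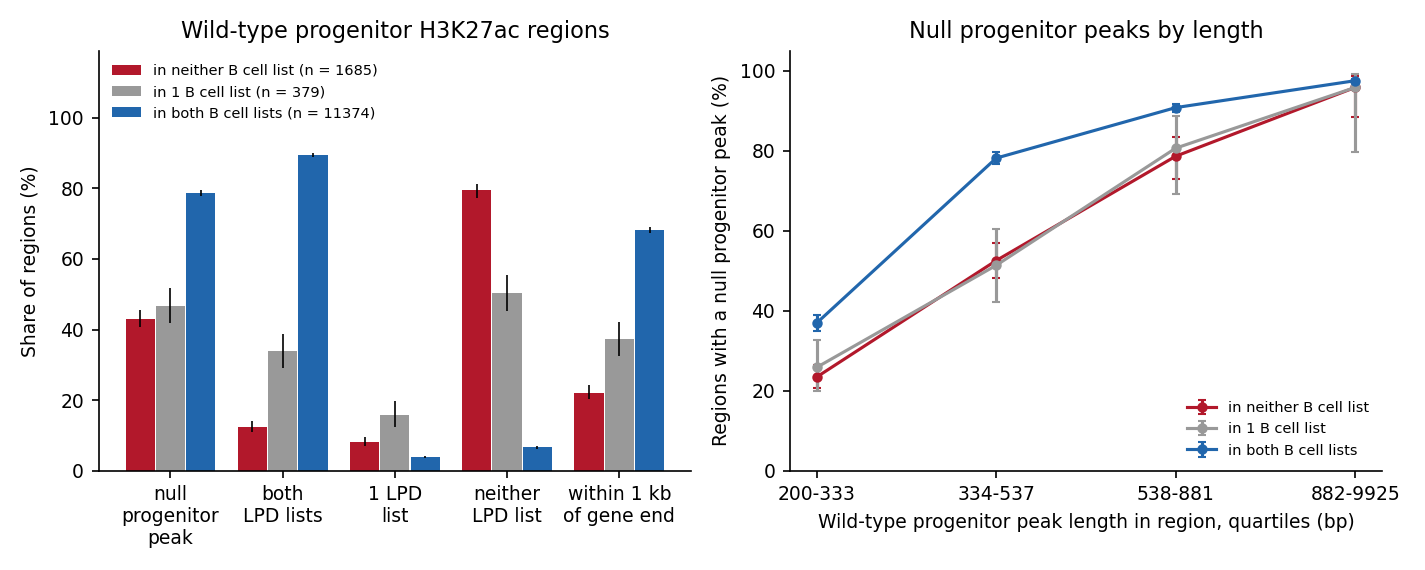
Left, share of wild-type progenitor H3K27ac regions (%, bars from 0, lines are 95% Wilson intervals) with a null progenitor peak, in both, 1 or neither LPD list, or within 1 kb of a gene end, for regions in neither, 1 or both B cell lists. Right, share with a null progenitor peak (%) by quartile of wild-type progenitor peak length (bp); members rose from 23.4 to 95.8% and lay below the regions of both B cell lists in the first 3 quartiles.

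Members with a null progenitor peak were in both LPD lists in 120 of 725 cases (16.6%, 14 to 19.4%), and those without in 90 of 960 (9.38%, 7.69 to 11.4%). The members with a null peak were also wider, with a median of 440 bp against 276 bp. By quartile of length, 9.34, 16.4, 14.5 and 15.3% of members were in both LPD lists. Seen from the disease, 4621 regions were in both LPD lists and absent from B cells, and 210 of these (4.54%) had a wild-type progenitor peak while 138 (2.99%) had a null progenitor peak. The 210 members in both LPD lists had a median of 375.5 bp in wild-type progenitors, 533 bp in LPD list 1 and 417 bp in LPD list 2. Among them 116 were longer in both LPD lists than in the progenitors and 45 were shorter in both.

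The threshold of the rule left members close to B cell peaks as well as far from them. The nearest member lay 3 bp from a B cell H3K27ac peak, 35 lay within 100 bp and 334 within 1 kb, while the median distance was 14.6 kb (quartiles 2.44 and 52.7 kb). Just outside the rule, the smallest length that B cell peaks covered in a progenitor region was 200 bp, the shortest peak the lists contain, and 401 such regions had under 300 bp in the longer B cell list. Members within 1 kb of a B cell peak were in both LPD lists in 17.1% of cases, and the 442 members more than 50 kb away in 9.5%. Their null progenitor shares were 38.6% and 50.5%.

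Of the members 373 (22.1%) were within 1 kb of an end of a protein-coding gene, against 61.6% of all wild-type progenitor regions and 68.3% of those shared with both B cell lists. This did not hold with H3K27ac lists of equal length, where 70.5% of members and 67.7% of all wild-type progenitor regions were at gene ends. A further 735 members (43.6%) lay inside a gene and 577 (34.2%) outside. The gene-end members were in both LPD lists most often, in 24.9% of cases (20.8 to 29.6%), compared with 10.6% of those inside genes and 6.76% of those outside. On chromosome X, 4 of 242 wild-type progenitor regions (1.65%) were members.

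The members were assigned to 990 of 21900 protein-coding genes (4.52%), or 10.2% of the 9674 genes that had any wild-type progenitor region. Assignment was to every gene whose span, widened by 1 kb, held the member, and otherwise to the nearest gene within 50 kb, so a member need not act on its gene. A single member was found at 686 genes and 5 or more at 32. Of the 990 genes, 327 (33.0%) had no H3K27ac peak of any region in either B cell list, 197 of these had none in LPD either, and 87 had peaks in both LPD lists. The choice of members favours genes without B cell peaks, and the 327 were not compared with all genes that had a wild-type progenitor region. Another member lay within 10 kb of 812 members (48.2%). The same share over all wild-type progenitor regions was not computed, so grouping is not shown to be particular to the members.

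The most member sequence was assigned to Adgrg1 (chromosome 8, 94974756 to 95014208), the gene of the adhesion receptor GPR56, which is known from stem cells and cytotoxic lymphocytes. All 9 of its wild-type progenitor regions were members, within 18.4 kb, and together they covered 7.98 kb in wild-type progenitors. All H3K27ac peaks at the gene covered 5.70 kb in null progenitors and none in either B cell list or either LPD list. The 2 widest members of the whole set were inside this gene, with 2372 and 2346 bp in wild-type progenitors and 1528 and 2232 bp in the null. The second of them, at chr8:94976344-94978750, holds the Adgrg1 window printed above. The neighbouring gene Adgrg3, of another adhesion receptor, had 6 members with 3.6 kb in wild-type progenitors and 1.32 kb in the null, and again none in the 4 spleen lists. A member inside Adgrg3, of 1101 bp, was the widest of all that were absent from the null and from both LPD lists.

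Transcription factor genes of early lymphoid cells were also among the 12 genes with the most member sequence. Erg, an ETS factor of stem and progenitor cells (chromosome 16, 95359169 to 95586600), had 10 members with 4.06 kb, of which 4 had a null peak. Its H3K27ac covered 5.51 kb in wild-type and 3.22 kb in null progenitors, 1.93 and 1.69 kb in the B cell lists and none in either LPD list. Tcf7 (chromosome 11, 52246527 to 52283383), which encodes the T cell and progenitor factor TCF1, had 3.25 kb in wild-type progenitors, 0.793 kb in null progenitors, none in B cells, and 0.389 and 0 kb in LPD. All of its 6 progenitor regions were members, and only 2 had a null peak. Runx3, a factor of cytotoxic and innate lymphocytes, had 9 members, 5.16 kb in wild-type and 1.82 kb in null progenitors, 4.45 and 4.34 kb in B cells, and 2.42 and 1.11 kb in LPD.

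Most of the other genes with much member sequence had H3K27ac in B cells and LPD as well. Bcl2l1, the gene of the survival protein BCL-XL, had 6 members. Its peaks covered 5.10 kb in wild-type and 3.19 kb in null progenitors, 1.27 and 1.32 kb in B cells, and 3.68 and 1.71 kb in LPD. Xxylt1, whose product extends the sugar chains on Notch repeats, had 4 members, 3 of them in both LPD lists. It had 5.08 kb in wild-type progenitors, 2.07 kb in null progenitors, 2.79 and 2.18 kb in B cells, and 12.4 and 8.42 kb in LPD, so both LPD values lay above the B cell and progenitor values. Bcr, a regulator of small GTPases, had 7 members, and the protease gene Tmprss3 had 5 members and no H3K27ac peak in either LPD list. Cecr2, a gene of chromatin remodelling, had 7 members that all lay outside its span and were assigned as nearest, Tbc1d16 had 9 and the kinase gene Prkch 8. Tbc1d16 had 5.20 kb in wild-type progenitors and 1.5 kb in the null, and 1 of its 9 members had a null peak.

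**Figure D2:**
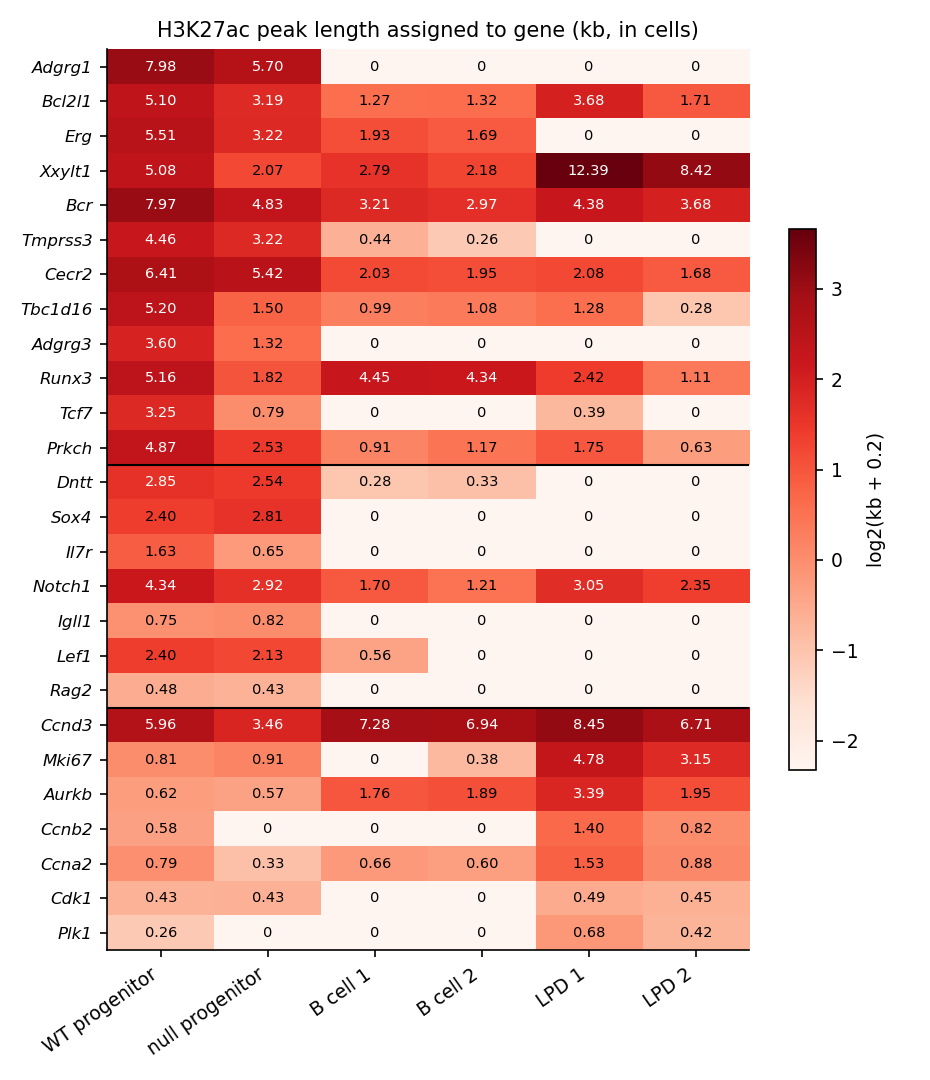
H3K27ac peak length (kb, numbers in the cells; colour on a log2 scale) assigned to each gene in the 6 lists, for the 12 genes with the most member sequence, the other lymphoid progenitor and early B cell genes with a member, and the proliferation genes with a member. Adgrg1 and Il7r have values in the progenitor columns only, whereas Mki67, Ccnb2 and Plk1 are highest in the LPD columns.

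Of 16 gene lists, which hold 290 distinct genes, 46 genes had a member. The list of lymphoid progenitor and early B cell genes had the highest share, 9 of 25 genes (36%), against 4.52% of all protein-coding genes. Only genes with a wild-type progenitor region can have a member, and over those the order changed. Members were then at 9 of 20 genes of this list, 7 of 14 stem and progenitor genes and 7 of 15 proliferation genes. For T cell genes it was 6 of 9, for natural killer and innate lymphoid genes 6 of 7, and for all such protein-coding genes 10.2%. The 36 members at the lymphoid progenitor and early B cell genes included 22 with a null progenitor peak and none in either LPD list. Of all members, 79.4% were in neither. With only peaks of at least 500 bp, 2 of 15 such members were in both LPD lists, and with H3K27ac lists of equal length 2 of 25. This list and the proliferation list are described first because of their values, which were seen before the order was chosen. Il7r, whose product is the receptor the cells were sorted by, had 1.63 kb in wild-type progenitors, 0.654 kb in null progenitors and none in B cells or LPD. Its 2 members were at the gene start, and the wider one, of 1350 bp, had 441 bp in the null. Dntt, which encodes the terminal transferase that adds bases at immunoglobulin joints, had 7 members, 6 of them with a null peak. Its peaks covered 2.85 kb in wild-type and 2.54 kb in null progenitors, 0.281 and 0.326 kb in B cells, and it had none in either LPD list. Dntt thus differed little between the progenitor lists, whereas at Il7r the null value was under the wild-type value.

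Igll1, of the surrogate light chain, had 0.750 kb in wild-type progenitors, 0.825 kb in null progenitors and none in the 4 spleen lists. Rag2, of the recombinase, had 0.480 and 0.429 kb and none in the spleen lists, and its member also touched the span of the neighbouring gene Iftap. Sox4, of a factor needed for early B cells, had 2.40 and 2.81 kb and none in the spleen lists. The Rag2 member itself had 480 bp in wild type and 209 bp in the null, and the rest of the null length came from a region without a wild-type progenitor peak. At Igll1 and Sox4 the null value was above the wild-type value, and at all 3 genes the H3K27ac lists of the spleen were empty. The Sox4 member of 1513 bp had H3K56ac in B cell list 1. Lef1, of a Wnt pathway factor, had 2.40 and 2.13 kb in progenitors, 0.558 and 0 kb in B cells, and no peak in LPD. Notch1, of the receptor that starts T cell development, kept other regions, with 4.34 and 2.92 kb in progenitors, 1.70 and 1.21 kb in B cells and 3.05 and 2.35 kb in LPD, but its 3 members were in neither LPD list.

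Members at proliferation genes were mostly present in LPD. A member was found at 7 of the 21 genes (33.3%), and 8 of the 10 members were in both LPD lists, against 12.5% of all members. Most of the 10 lay at gene ends, where 24.9% of members were in both LPD lists, and 2 of the 8 were at Ccnb2. With only peaks of at least 500 bp 2 of 3 were in both LPD lists, and with H3K27ac lists of equal length 2 of 12. Mki67, the gene of the marker Ki-67, had 0.815 kb in wild-type progenitors, 0.914 kb in null progenitors, 0 and 0.378 kb in B cells, and 4.78 and 3.15 kb in LPD. Its member, at chr7:135712874-135716456, covered 3583 and 2889 bp in the LPD lists. Ccnb2, of mitotic cyclin B2, had 0.584 kb in wild-type progenitors, none in the null, none in B cells, and 1.40 and 0.825 kb in LPD. Both of its members lay at the start of the gene and overlapped the opposite ends of the window printed above. At Mki67 and Ccnb2 both LPD lists had more than every other list.

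Cdk1, of the main mitotic kinase, had 0.430 and 0.434 kb in progenitors, none in B cells, and 0.495 and 0.447 kb in LPD. Plk1, of another mitotic kinase, had 0.261 kb in wild-type progenitors, none in the null or in B cells, and 0.675 and 0.417 kb in LPD. Ccna2 and Aurkb had a member each in both LPD lists, of 473 and 618 bp in wild-type progenitors, 694 and 1216 bp in LPD list 1 and 504 and 1005 bp in LPD list 2. Ccnd3, of a cyclin of the G1 phase, had 3 members, of which 1 was in both LPD lists. The LPD material was unsorted spleen, and of 6 erythroid and megakaryocyte marker genes 3 and 2 had H3K27ac peaks in the LPD lists, 1 in each B cell list and none in wild-type progenitors. Their summed length was 2.40 and 1.23 kb in LPD and 0.797 and 0.742 kb in B cells, with Gata1, Epor and Pf4 at 0 in every list. Over the full erythroid and megakaryocyte list, 12 and 9 of 20 genes had peaks in LPD, with 23.8 and 13.3 kb, and 5 in each B cell list, with 7.16 and 7.25 kb. In wild-type progenitors 4 of the 20 had peaks, with 7.0 kb. Slc4a1, of the main anion exchanger of red cells, had 4.43 and 2.85 kb in LPD and none in B cells. The part of such cells in the proliferation values was not tested.

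**Figure D3:**
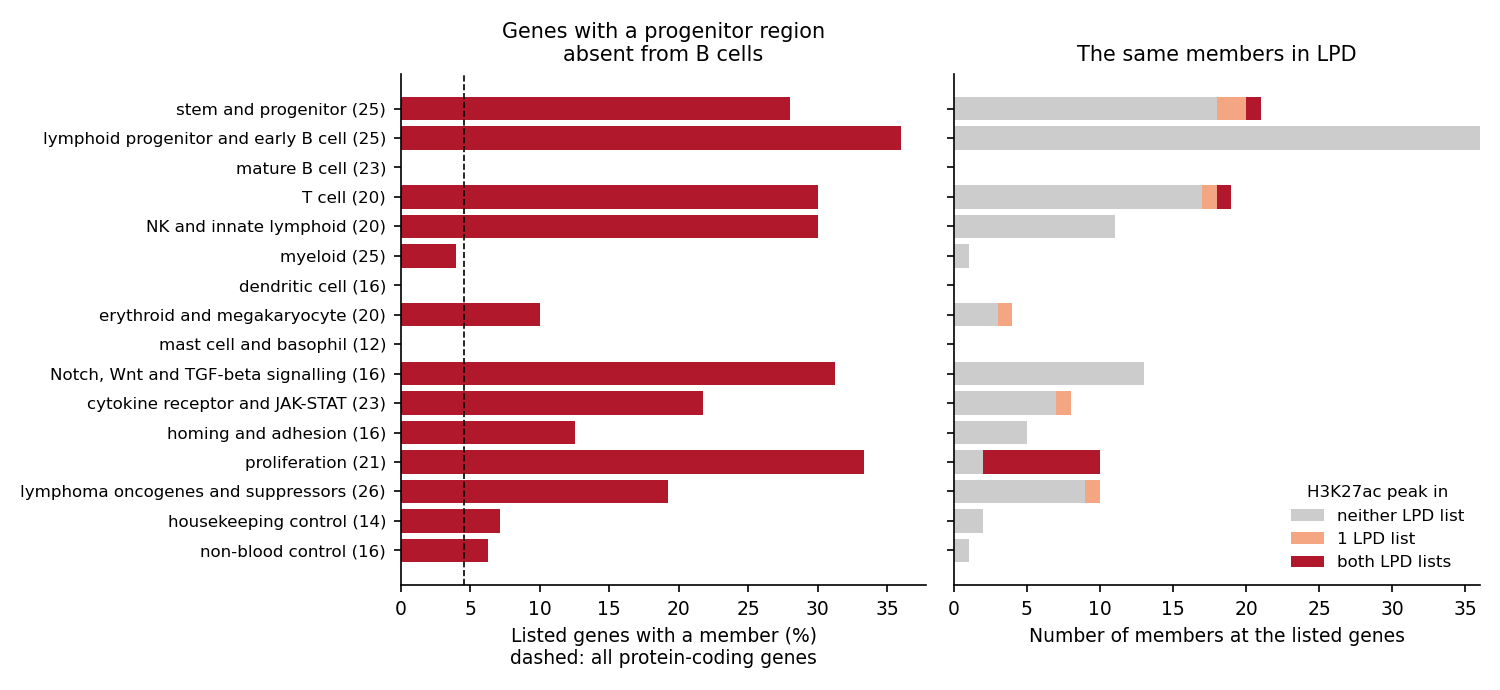
Left, share of listed genes with at least 1 member (%, number of genes in parentheses; the dashed line is the 4.52% of all protein-coding genes). Right, number of members at those genes in neither, 1 or both LPD lists: all 36 at lymphoid progenitor and early B cell genes are in neither, and 8 of 10 at proliferation genes are in both.

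Genes of T cells and of natural killer (NK) and innate lymphoid cells had members as well, at 6 of 20 genes in each list (30%). Of the 19 members at T cell genes 7 had a null peak, and of the 11 at NK and innate genes 3 had one, where the share over all members was 43.0%. Zap70, of the kinase behind the T cell receptor, had 1.56 kb in wild-type progenitors, 0.575 kb in null progenitors and none in the spleen lists. Nkg7, of a cytotoxic granule protein, had 1.66 and 0.248 kb in progenitors and none in the spleen lists. Il2rb, a receptor chain for interleukin-2 and interleukin-15, had 1.39 and 0.2 kb in progenitors, none in B cells, and 0.481 and 0.929 kb in LPD from regions that were not members. All 3 had less in the null than in the wild-type list, whereas Il18r1 had 0.465 kb in the null and 0.371 kb in wild type, and the null list was shorter overall. Cd247, Cd5 and Lat had 1 to 3 members each, and so did Rora, Klrb1c, Il18r1 and Id2. The defining T cell markers Cd3e, Cd4, Cd8a and Bcl11b and the NK and innate markers Ncr1, Eomes, Tbx21, Il1rl1 and Zbtb16 had no H3K27ac peak in the wild-type progenitors. Cd3d and Lck had peaks there, summing with the other T cell markers to 3.25 kb, and also in both B cell lists, with 9.69 and 9.59 kb. Rora, the remaining 1 of the 6 NK and innate markers, had 1.655 kb in the wild-type progenitors and none in the null. Of its 3 wild-type progenitor regions 2 were members, and it had 2.70 and 2.76 kb in B cells. The part of T or innate lymphoid cells in the sorted material was otherwise not tested.

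The remaining lists ranged from no gene with a member to about the share of the T cell list. The stem and progenitor list had members at 7 of 25 genes (28%), Erg, Sox4, Runx1, Myb, Cd93, Mycn and Meis1, and 1 of its 21 members, at the start of Myb, was in both LPD lists. Myb, of a factor of blood progenitors, had 1.02 and 0.851 kb in progenitors, 1.91 and 1.82 kb in B cells, and 7.08 and 4.72 kb in LPD. Members at Notch, Wnt and TGF-beta pathway genes, 13 at 5 of 16 genes, were all in neither LPD list, and those at Tcf7, Notch1 and Lef1 are the members already described. Cytokine receptor genes had members at 5 of 23 genes, homing genes at 2 of 16, lymphoma oncogenes and suppressors at 5 of 26, and erythroid and megakaryocyte genes at 2 of 20. No mature B cell gene of 23, no dendritic cell gene of 16 and no mast cell gene of 12 had a member. The myeloid list had 1 of 25, the housekeeping list 1 of 14 and the non-blood list 1 of 16. Neither Crebbp nor Ep300, the gene of p300, had a member.

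The labelled cell types were checked against their markers. Of 8 lymphoid progenitor markers 5 had H3K27ac in wild-type progenitors (Il7r, Flt3, Dntt, Rag2 and Cd93), and Kit, Rag1 and Ly6d were at 0. The 8 together had 10.9 kb there and more in B cells, 13.6 and 13.8 kb, of which Flt3 held 8.74 and 8.27 kb. All 8 mature B cell markers had peaks in both B cell lists, with 63.3 and 63.5 kb, whereas the wild-type progenitors had them at 4, with 6.84 kb. The chosen myeloid, erythroid, megakaryocyte, mast cell and basophil markers were at 0 in the wild-type progenitors. Of 4 dendritic cell markers 3 had peaks there, with 1.70 kb, and 4 in each B cell list, with 13.8 and 13.2 kb. The longer gene lists were not empty in the wild-type progenitors. Peaks were at 7 of 25 myeloid genes (16.3 kb), 4 of 20 erythroid and megakaryocyte genes (7.0 kb) and 1 of 12 mast cell genes (0.943 kb).

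Of the 210 members in both LPD lists, 93 lay at gene ends, and the 210 overlapped the promoter windows of 69 genes. Those named in this paragraph are cell division genes that were chosen after their values were seen, so their number says nothing about the 69. Uhrf1, which maintains DNA methylation in dividing cells, had a member of 779 bp in wild-type and 734 bp in null progenitors, 0 bp in both B cell lists, and 747 and 612 bp in LPD. Rad51ap1, of a DNA repair protein, had 835 and 532 bp in progenitors and 692 and 546 bp in LPD. Racgap1, needed to divide the cell body, had 338 and 200 bp in progenitors and 1332 and 1023 bp in LPD. At Uhrf1 and Rad51ap1 the lengths in LPD were near those in progenitors, and at Racgap1 they were longer. Ncapg, of the condensin complex, had 329 and 328 bp in progenitors and 765 and 677 bp in LPD, and it shares its region with the divergent gene 1600023N17Rik. Hmmr, Cdkn3, Clspn and Stil had peaks in both progenitor lists and both LPD lists, while Cdca8 and Spag5 had none in the null progenitors. Members at the promoters of Zwint and E2f7, also genes of cell division, were in neither LPD list.

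Windows of promoters at members were rich in CpG, with a median of 21 CpG dinucleotides against 7 in all 32851 windows and 24 in those shared by progenitors and both B cell lists. The CCAAT box was present in 37 of 79 windows (46.8%) at members in both LPD lists and in 29 of 124 (23.4%) at members in neither. It was present in 35.4% of windows shared with B cells and in 37.4% of all windows. The cell cycle homology element was in 20 of 79 (25.3%) and 11 of 124 (8.87%), with 10.1% of shared and 17.9% of all windows. Both motifs together were in 19 of the 79 windows (24.1%), 3 of the 124 (2.42%) and 6.95% of all windows. In the other direction, the ETS motif was in 2.53% of the windows at members in both LPD lists and in 11.3% of those at members in neither, against 9.35% of all windows. The EBF motif was in 15.2 and 25%, against 13.7% of all windows, and the CACCTG E-box in 13.9 and 25%, against 20.2%. These shares were not tested, some genes contribute several windows, and the CCAAT and TTTGAA letters were searched only after the genes were known.

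**Figure D4:**
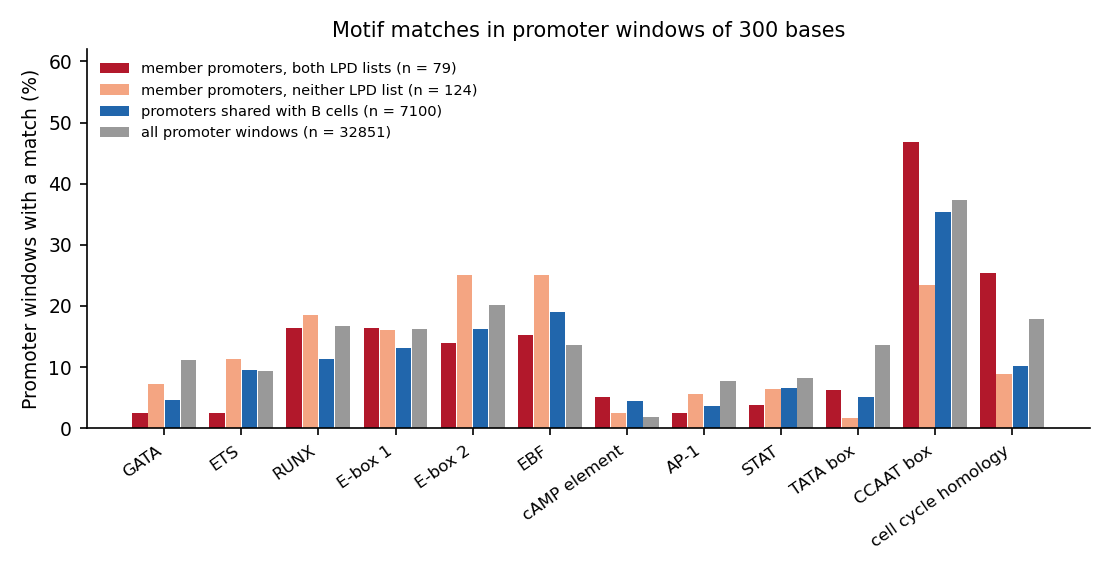
Share of promoter windows of 300 bases (%, bars from 0) with a match to each of 12 motifs on either strand, for windows at members in both LPD lists (79), at members in neither (124), at regions shared by progenitors and both B cell lists (7100) and for all windows (32851); E-box 1 is CAGCTG and E-box 2 is CACCTG. The CCAAT box is in 46.8% of the first group and 23.4% of the second, and the cell cycle homology element in 25.3 and 8.87%.

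The 6 widest members were taken from each of 4 classes. Among those with a null peak and both LPD lists were members at 2900026A02Rik (1704 bp in wild-type and 1832 bp in null progenitors, 1334 and 1162 bp in LPD), Xxylt1 (1627 and 1110 bp, then 2208 and 1936 bp) and Bcl2l1 (1200 and 697 bp, then 1043 and 655 bp). Slc43a2, Pik3r5 and Niban2 followed. All 6 also had H3K18ac and H3K56ac in both LPD lists and in no list of B cells. Without a null peak but in both LPD lists, the widest were at St3gal4, a sialyltransferase gene (869 bp in wild-type progenitors, 1190 and 853 bp in LPD), Xxylt1, Iscu, Stk3, Pnpla1 and the neighbours Plcb3 and Ppp1r14b. These 6 showed the same pattern in the other marks. Absent from the null and from LPD were members at Adgrg3, Osbpl3, Sgms2, St8sia1, Arhgef10l and Rora, each of 863 to 1101 bp. With a null peak but absent from LPD, the widest after Adgrg1 were near Gpr61 (2281 and 2315 bp), at Tmprss3 (1985 and 1749 bp) and at Ramp1 (1694 and 1268 bp).

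H3K18ac and H3K56ac lists were not used to choose the members and were examined at the same regions. In B cells both marks went with H3K27ac. H3K18ac was at 84.8 and 86.4% of regions shared with both B cell lists, and H3K56ac at 88.9 and 85.8%. Choosing regions without B cell H3K27ac therefore also lowers the B cell counts of these marks. The ratios, p-values and patterns that follow are thus not independent of the choice. H3K18ac peaks were present at 145 and 166 members in the B cell lists and at 495 and 402 in the LPD lists. The log2 ratio, taken here as the difference of mean log2 counts, was 1.52, with LPD above B cells in both lists. The exact two-sided permutation p was 0.333, the smallest that 2 lists against 2 allow. Peaks of this mark over the whole genome had a log2 ratio of 0.70. H3K56ac peaks were at 141 and 88 members in B cells and at 294 and 296 in LPD, a log2 ratio of 1.41 (exact permutation p = 0.333), compared with 0.55 over the genome. The lists of the 2 groups did not overlap in either mark. Restricted to peaks of at least 500 bp the ratios were 0.64 and 0.32, and with H3K27ac lists of equal length 0.10 and 0.03, so their size depended on both of these settings.

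H3K18ac in both LPD lists without any in the B cell lists was found at 261 members (15.5%), against 7.59% of all wild-type progenitor regions, and the reverse at 29 members, against 2.23%. H3K56ac had the first pattern at 174 members (10.3%), against 5.17%, and the reverse at 21, against 2.84%. The members behind these counts were largely those with H3K27ac in LPD. Of the 210 in both LPD H3K27ac lists, 179 (85.2%) had H3K18ac and 162 (77.1%) H3K56ac in both LPD lists. By single LPD list, H3K18ac was at 93.8 and 86.2% of the 210, and H3K56ac at 85.7 and 83.8%. Regions shared with both B cell lists were not lower, with 94.3 and 90.1% for H3K18ac and 89.9 and 90.8% for H3K56ac. Among the 1338 members in neither LPD H3K27ac list, H3K18ac was at 93 and 113 in B cells and 205 and 147 in LPD. H3K56ac was at 87 and 55 of these members in B cells and 62 and 52 in LPD. For those the log2 ratios were 0.76 (exact permutation p = 0.333) and -0.28 (exact permutation p = 0.667), and the H3K56ac values of the 2 groups overlapped.

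**Figure D5:**
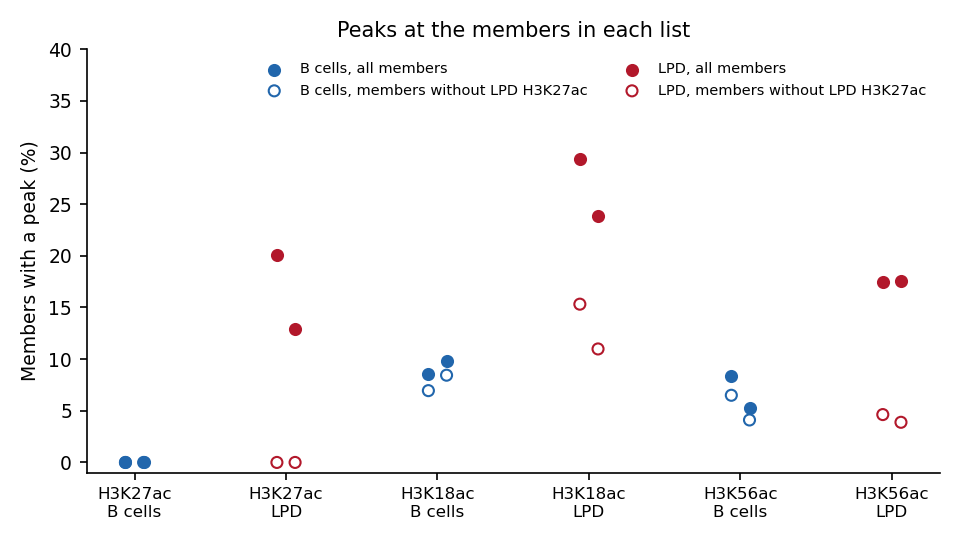
Share of members with a peak (%) in each list of wild-type B cells and LPD by mark, 1 point per list; filled points are all 1685 members and open points the 1338 without H3K27ac in LPD. H3K27ac is 0 in B cells by the choice of members, and H3K18ac and H3K56ac points of all members lie higher in LPD.

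Absence of H3K27ac from B cells was not absence of acetylation at every member. Another mark was present in at least 1 B cell list at 323 members (19.2%). Of the regions shared with both B cell lists, only 472 (4.15%) had no other mark in any B cell list. At Lef1, a member of 297 bp inside the gene had H3K18ac and H3K56ac in all B cell lists and in no LPD list. The cell division members at Mki67, Ccnb2, Cdk1 and Plk1 had neither mark in any B cell list, and all 4 genes had H3K56ac at a member in both LPD lists. H3K18ac was in both LPD lists at the Mki67 and Ccnb2 members, in LPD list 1 only at Cdk1, and in neither at Plk1. The members at Aurkb and Ccna2 each had H3K56ac in 1 of the B cell lists as well. All 3 marks were in every LPD list at 147 members, and 94 of these had no mark in B cells. In contrast, 963 members (57.2%) had no peak of any mark in any B cell or LPD list. Of those, 376 (39.0%) had a null progenitor peak, near the 43.0% of all members. The counts of 147, 94 and 963 were not made over all wild-type progenitor regions, so they are not shown to be particular to the members. Il7r, Igll1 and Rag2 members were among the 963. The 2 widest Adgrg1 members were not. Both had H3K18ac in LPD list 1, and the one at chr8:94976344-94978750 also had it in LPD list 2 and had H3K56ac in B cell list 1. CBP peaks of wild-type B cells touched 2 members (0.119%), against 665 of the regions shared with both B cell lists (5.85%) and 4.98% of all wild-type progenitor regions. This contrast is not independent of the choice either, since B cell H3K27ac defined the members. The CBP list held only 1000 peaks, covering 0.305 Mb, and members were narrower and less often at gene ends than shared regions. A missing CBP peak is thus not shown to be missing CBP.

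Around the Mir23a, Mir27a and Mir24-2 microRNA genes on chromosome 8 lay 3 members, a locus chosen after its values were seen. These microRNAs are transcribed together and are known to restrain lymphoid and favour myeloid development. The mature strands from RefSeq (GRCm38.p6) are shown because the members flank their hairpins at 84208518 to 84208921, and capitals mark the seed, bases 2 to 8.
miR-23a-3p: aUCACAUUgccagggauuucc
miR-27a-3p: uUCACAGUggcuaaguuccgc
miR-24-3p: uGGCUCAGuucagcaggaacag

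The 3 seeds differed from each other. The members covered 441, 662 and 266 bp in wild-type progenitors and 264, 0 and 206 bp in the null. The first and the last had 275 and 274 bp in LPD list 1, and none of the 3 had a peak in LPD list 2 or in B cells. The lists therefore differed within LPD at this locus.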

How the data were processed

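H3K27ac, H3K18ac, H3K56ac and CBP ChIP-seq peak lists of 15 samples were used; 15 of the 30 samples were not analysed here. The authors' deposited values are the positions of peaks, each list from a single library, without scores or heights. Per the submitters' processing notes, the tools were Bowtie2 2.1.0, Picard, MACS2 2.0.10 and bedtools on mm10, with settings not given in the sources used here. The narrowest peak was 200 bp.

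Everything else was computed in Python (3.11.15) with pandas (2.3.3), SciPy (1.17.1) and NumPy (2.4.6); Matplotlib (3.10.9) drew the figures. Touching or overlapping peaks were merged. Lengths per gene sum the peaks of all its regions. Genes came from RefSeq (GRCm38.p6, 21900 protein-coding), and 318 of 320 gene list entries matched, 1 by an older symbol. No strand is in that table, so either gene end counted. Members and lists were chosen with earlier results of these data known. Named genes were the 12 with most member sequence, the 10 widest members, up to 4 per gene list, marker genes, the 6 widest members of 4 classes, the 5 largest clusters, promoters of these, Crebbp and Ep300; others were named after their values were seen. A gene that meets the rule is not reported here. Groups were compared with an exact permutation test over lists. Merging, presence and gene assignment were tested on simulated data.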

Additional observations from a re-analysis of the deposited data

How the results depend on the processing

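Across 23 alternative settings, 72 recomputed values were counted as the same as the main value and 37 as moved. The 72 include all 22 H3K18ac and H3K56ac differences, which had only to keep their sign. With H3K27ac lists of equal length these differences fell to 0.10 and 0.03 (log2). With lists of equal length, members were no longer apart from all progenitor regions by null peaks (93.5 and 93.7%), were slightly more often at gene ends (70.5 and 67.7%), and 2 proliferation members were in both LPD lists. All 22 recomputed H3K18ac and H3K56ac differences had more members in LPD. With only peaks of at least 500 bp there were 604 members: 35.9% had a null peak, 14.7, 9.77 and 75.5% were in both, 1 and neither LPD list, 30.6% were at gene ends, 23 listed genes had a member, and 2 lymphoid progenitor and 2 proliferation members were in both LPD lists. With H3K27ac lists of equal length there were 5796 members, since most B cell peaks were removed: 93.5% had a null peak, 6.21, 16.7 and 77.1% were in both, 1 and neither LPD list, 70.5% were at gene ends, and 2 members of each of these gene lists were in both. With each progenitor peak as a region, 14.8% were in both and 75.9% in neither LPD list. At least 1 kb from B cell peaks, 6.88% were in 1 and 81.8% in neither LPD list, 20.2% were at gene ends and 5 proliferation members were in both LPD lists. Gene ends within 2.5 kb held 28.5%, and 5 members lay within 1 kb of a CBP peak. Among members with no other mark in B cells, 40.01% had a null peak and 10.1, 6.90 and 83.04% were in both, 1 and neither LPD list.

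Leaving out B cell list 2 or list 1 gave 1842 and 1907 members. Of these 14.2 and 15.0% were in both LPD lists, 77.1 and 75.8% in neither, and 23.1 and 24.2% at gene ends. Lymphoid progenitor members in both LPD lists then numbered 0 and 1. With an LPD list left out, the shares describe the single list that remains and are not shares of both. They were 20.1% in LPD list 1, with 79.9% absent from it, and 12.9% in LPD list 2, with 87.1% absent. In either case 0 lymphoid progenitor members were in the remaining list. The H3K18ac ratio ranged from 1.37 to 1.67 and the H3K56ac ratio from 1.07 to 1.75 (log2). With a replicate block the ratios were 1.52 and 1.41, each with an exact sign-flip p of 0.5, the smallest it allows. The labels do not say that a number marks a shared animal or day. Counts for the 2 gene lists, and members with no other mark in B cells, were added after seeing the data.

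List length, peak width and the single library per progenitor genotype limit these values. Depth is unknown, and a missing peak is not shown to be missing acetylation.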

Other observations

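The cluster of members with the most wild-type progenitor sequence outside any assigned gene lay on chromosome 12, from 25164535 to 25168494. Its 4 members covered 3.17 kb in wild-type and 1.33 kb in null progenitors, 0.2 kb in LPD list 1 and none in LPD list 2. A member of 1543 bp at chr5:149118001-149119543, also without an assigned gene, had 988 bp in null progenitors and none in LPD. Gfi1b, of a repressor needed in red cell and platelet development, had 3 members, 1.22 kb in wild-type and 0.629 kb in null progenitors, 0 and 0.339 kb in B cells, and 3 and 1.76 kb in LPD. None of its members was in both LPD lists. A member of 309 bp had 303 bp in LPD list 1, and the rest of the LPD length came from other regions.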
